A study of Homo sapiens with 5 samples.

Results

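The type I interferon response and the display of peptides on MHC class I were followed through 50 listed gene names, which stand for 49 genes because RIGI and DDX58 name the same gene. The genes were listed by name, for their place in these pathways, with earlier results of these data known. Of the 49 genes, 39 had counts in the table and all 39 were tested, out of 16310 tested genes. The other 10 (IFITM1, IFIT2, IFIT3, MX1, OAS1, OASL, IFI44, DHX58, PARP12 and PARP14) were not analysed here. Every gene in the table had at least 3 counts in each library, so a gene that is silent in 1 library could not be followed. The cells were HEK293, an established human embryonic kidney line, grown under basal conditions with no treatment named. There were 2 wild-type libraries (Control 1 and Control 2) and 3 libraries of cells in which rs11607019, a base in SIRT3 by the series title, was changed from T to C (variant 1, variant 2 and variant 3). Nothing in the labels says if a library stands for a clone of its own or for another culture of 1 clone. P-values therefore measure only the spread between these libraries, and the deviation of a single library has no replicate.

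Type I interferon binds the receptor pair IFNAR1 and IFNAR2, and the kinases JAK1 and TYK2 then activate STAT2. With IRF9 it takes part in a complex that binds the interferon-stimulated response element (ISRE) in the promoters of interferon-stimulated genes, whose products block steps of viral infection. IRF3 and IRF7 drive interferon genes themselves after the RNA sensors RIG-I and MDA5 have bound viral RNA. Many of these genes keep a low level in cells that have met no virus. The class I pathway pairs an HLA heavy chain with beta-2-microglobulin and loads it with peptides that the transporter TAP1 and TAP2 brings into the endoplasmic reticulum.

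Short stretches of promoter that hold the core letters of this element are shown. Genes that were low in variant 2 (IFITM3 and IFIT1) and genes that were not (ISG15, OAS3 and TAP1) carry the same letters. IFIT1 was low in variant 1 as well, and B2M and DTX3L, also shown, had their lowest level there. Promoters were RefSeq's, from 250 bases before to 50 bases after the gene start on GRCh38.p14, and were found for 34 of the 39 genes. The letters searched were GAAA, any 2 bases and GAAA, which read TTTC, any 2 bases and TTTC on the other strand. Capitals mark 1 match in each window of 40 bases, which runs along the strand of the gene. IFITM3 lies at chr11:320871-320910 on the reverse strand, IFIT1 at chr10:89392492-89392531, ISG15 at chr1:1013375-1013414 and OAS3 at chr12:112938316-112938355, the last 3 on the forward strand. TAP1 lies at chr6:32853808-32853847 on the reverse strand and B2M at chr15:44711364-44711403 on the forward strand. PARP9 and DTX3L start beside each other in opposite directions, and the same 40 bases, chr3:122564317-122564356, lie in both promoters and are shown on the DTX3L strand.
IFITM3: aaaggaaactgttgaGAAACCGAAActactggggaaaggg
IFIT1: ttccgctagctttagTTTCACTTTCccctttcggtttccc
ISG15: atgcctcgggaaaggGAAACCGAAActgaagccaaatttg
OAS3: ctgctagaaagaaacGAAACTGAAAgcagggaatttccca
TAP1: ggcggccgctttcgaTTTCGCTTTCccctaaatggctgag
B2M: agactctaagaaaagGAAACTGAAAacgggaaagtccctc
DTX3L: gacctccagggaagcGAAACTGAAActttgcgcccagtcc

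The letters occurred in the promoters of 19 of the 34 genes (55.9%). They occurred in 3.60% of the 10850 tested genes with a promoter and in 3.57% of all 35116 promoters in the table. They were in 6 of 7 promoters of antiviral effectors, 4 of 6 of the class I genes and 3 of 5 of the RNA sensors. No match was found in the 3 promoters of receptors and kinases or in the 3 of transcription factors. A match describes these letters only and does not show that a factor binds there.

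Total gene counts ran from 17122569 to 17596084 per library, and levels are given as CPM after TMM scaling (edgeR's trimmed mean of M-values), whose factors lay between 0.983 and 1.01. Among genes that HEK293 cells are known for, PAX2, LHX1, KRT8, KRT18 and VIM had counts in every library, with PAX2 at between 9.94 and 21.97 CPM and LHX1 at between 9.53 and 21.1 CPM. EYA1, SALL1, SALL2, NEFL, NEFM and INA, also listed as such, were not analysed here. Of 8 immune cell markers 1 had counts, CD74, at between 0.982 and 1.64 CPM. Of 7 fibroblast markers 2 had counts, COL1A1 and COL3A1, summing to between 30.6 and 48.2 CPM, and 0 of 4 endothelial markers did. The part of these in the results was not tested. In bulk RNA, fewer cells of a kind and less RNA per cell cannot be told apart.

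Some of these genes share sequence with others, which makes their counts uncertain with reads of 50 bases. Of all 50-base windows in the GENCODE transcripts of IFITM2, 34.1% also occur in transcripts of another gene, mostly IFITM1 and IFITM3, and for IFITM3 the share was 17.4%. IRF9 (43.6%), IFNAR2 (41.3%) and TAP2 (31.3%) share most such windows with 1 other annotated gene each. The classical HLA genes are near-identical in parts and differ between people, and the annotated HLA-B gene overlaps HLA-C, so a shift of reads between them cannot be told apart from a change of level.

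Between the groups, no interferon or class I gene differed beyond the threshold. The quasi-likelihood F test of edgeR called 0 of 39 genes at the adjusted threshold of 0.05, where it called 0.0% of all 16310 tested genes. The Wald test of DESeq2 also called 0 of the 39, beside 0.217% of all genes, and gave 1 of the 39 no adjusted p. With limma-voom the number was 0 as well. Without adjustment 4 of the 39 genes were under 0.05 with edgeR, beside 7.62% of all tested genes. TAP1 and HLA-B were higher, beside 4.11%, and IFIT1 and B2M lower, beside 3.51%. Limma-voom had 6 genes under 0.05 without adjustment, beside 7.24% of all tested genes, and DESeq2 had 7, beside 7.4%. At 9 of the 39 genes the library values of the groups lay apart, beside 24.8% of all tested genes. All variant libraries were higher at 4 genes, beside 11.8%, and lower at 5, beside 13.0%. The median log2 fold change of the 39 genes was −0.14, with 24 lower and 15 higher in the variant, and 49.5% of all tested genes were lower. That median was 0.03 without Control 2, so its sign rested on that library.

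**Figure D1:**
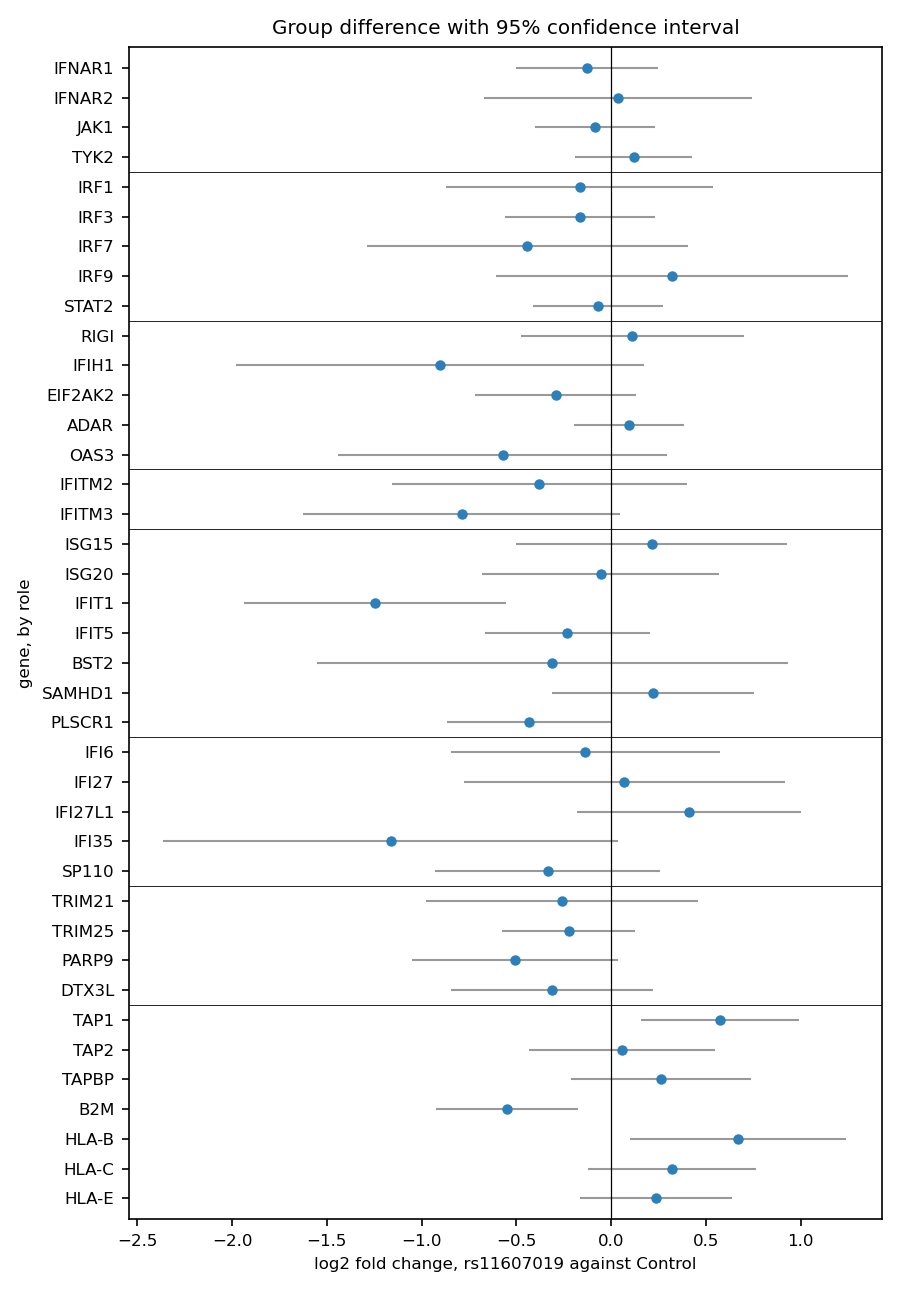
Log2 fold change of the variant against Control (x axis) for the 39 genes with counts (y axis, grouped by role), with points for edgeR's estimates and bars for 95% confidence intervals of single genes, not adjusted for the number of genes. The intervals of IFIT1 and B2M lie below 0, those of TAP1 and HLA-B lie above 0, and the other 35 include 0.

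The receptors and their kinases were level across the libraries. IFNAR1, the receptor chain that binds TYK2, stood at 92.03 and 89.3 CPM in Control 1 and Control 2 and at 92.4, 86.1 and 70.6 CPM in variant 1, variant 2 and variant 3. Only the last lay apart. IFNAR2, the chain that binds interferon first, was scarce at between 2.57 and 3.502 CPM, and its groups overlapped. JAK1 ran from 114 to 127 CPM. TYK2 had 183 and 185 CPM in Control and 201, 213 and 185 CPM in the variant, where variant 3 was barely above Control 2. The log2 fold changes of the 4 genes lay between −0.13 and 0.12, and the adjusted p-values from edgeR between 0.844 and 0.987.

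Among the transcription factors, Control 2 had the highest level in 4 of 5 genes, IRF7 among them, beside 15.4% of all tested genes. STAT2, a subunit of the ISRE-binding complex, was the steadiest, between 61.9 and 70.7 CPM. IRF3, which is present in resting cells and acts at the interferon genes once phosphorylated, stood at 92.2 and 119 CPM in Control and 81.2, 99.7 and 101 CPM in the variant. IRF1, a factor induced by interferon gamma, had 7.58 and 12.3 CPM in Control and 6.70, 8.27 and 11.6 CPM in the variant. IRF9, the DNA-binding subunit of the complex, was scarce and went the other way, with 1.98 and 3.82 CPM in Control and 3.005, 5.22 and 2.65 CPM in the variant. IRF9 lies on chromosome 14, where the median deviation of all tested genes was 0.34 in variant 1 and 0.35 in variant 2. In these libraries IRF9 itself had −0.09 and 0.88. That chromosome's part in the IRF9 value was not tested.

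IRF7, the factor that amplifies interferon production, was the transcription factor with the lowest level in variant 2 relative to the others. It stood at 9.97 and 20.7 CPM in Control 1 and Control 2 and at 12.1, 6.83 and 14.9 CPM in the variant libraries, from 171, 363, 210, 119 and 264 counts. Variant 2 was lowest, but the Control libraries were themselves far apart. Group means were 15.3 ± 7.59 CPM (SD, n = 2) and 11.3 ± 4.11 CPM (SD, n = 3), a log2 fold change of −0.44 (SE 0.38, edgeR adjusted p 0.780). It became 0.18 without Control 2 and −0.18 without variant 2.

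The RNA sensors and RNA-binding enzymes were split. ADAR, which edits adenosine to inosine in double-stranded RNA, was the most abundant, at 403 and 396 CPM in Control and 456, 413 and 411 CPM in the variant. Its groups did not overlap, yet the log2 fold change was 0.09 (SE 0.13) and became −0.08 once GC content and length were corrected for. EIF2AK2, which encodes the kinase PKR that halts translation, had 133 and 92.6 CPM in Control and 90.04, 103 and 82.8 CPM in the variant, so Control 1 alone stood high. RIGI, which encodes the RNA sensor RIG-I, ran from 7.003 CPM in variant 3 to 10.4 CPM in variant 2. It lies on chromosome 9, where the median deviation of all tested genes was 0.35 in variant 2 and 0.22 in variant 3. The part of that chromosome in the RIGI values was not tested.

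IFIH1, which encodes the RNA sensor MDA5, had separate levels among the variant libraries. It had 11.4 and 12.1 CPM in Control and 3.47, 11.7 and 3.67 CPM in variant 1, variant 2 and variant 3, so variant 2 was at the Control level and the others far below it. OAS3, a synthetase of the 2-5A second messenger that activates RNase L, was also highest in variant 2 among the variant libraries, with 10.4, 21.1 and 8.47 CPM beside 14.3 and 25.3 CPM in Control. The log2 fold change of IFIH1 was −0.90 (SE 0.48, edgeR adjusted p 0.679), and −1.72 without variant 2. For OAS3 it was −0.57 (SE 0.39, edgeR adjusted p 0.728), −1.07 without variant 2 and −0.10 without Control 2. The 2 tested genes that start within 500 kb of IFIH1 had median deviations of −0.84 in variant 1, 0.28 in variant 2 and −0.41 in variant 3. Their part in the IFIH1 value was not tested.

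The IFITM proteins sit in membranes and block the fusion of enveloped viruses with the cell. IFITM2 (ENSG00000185201) is placed by GENCODE release 29 on chromosome 11 from 307631 to 315272 on the forward strand, and IFITM3 (ENSG00000142089) from 319669 to 327537 on the reverse strand. IFITM2 had 324 and 548 counts in Control and 388, 187 and 437 in the variant, or 18.9 and 31.3 CPM against 22.4, 10.7 and 24.7 CPM. Variant 2 had the lowest level and Control 2 the highest. IFITM3 had 229 and 386 counts in Control and 231, 93 and 213 in the variant, or 13.3 and 22.01 CPM against 13.4, 5.34 and 12.03 CPM. Again variant 2 lay below and Control 2 above 3 libraries that were close together.

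Counting error alone gave IFITM3 a 95% Wilson interval of 4.36 to 6.54 CPM in variant 2, IFITM2 one of 9.30 to 12.4 CPM and IRF7 one of 5.71 to 8.17 CPM. These intervals hold no spread between libraries, and the genes were chosen for these values. Between the groups IFITM2 had a log2 fold change of −0.38 (SE 0.35, edgeR adjusted p 0.799), and 0.03 without Control 2. IFITM3 had −0.79 (SE 0.37, edgeR adjusted p 0.657), −0.48 without variant 2 and −0.38 without Control 2.

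**Figure D2:**
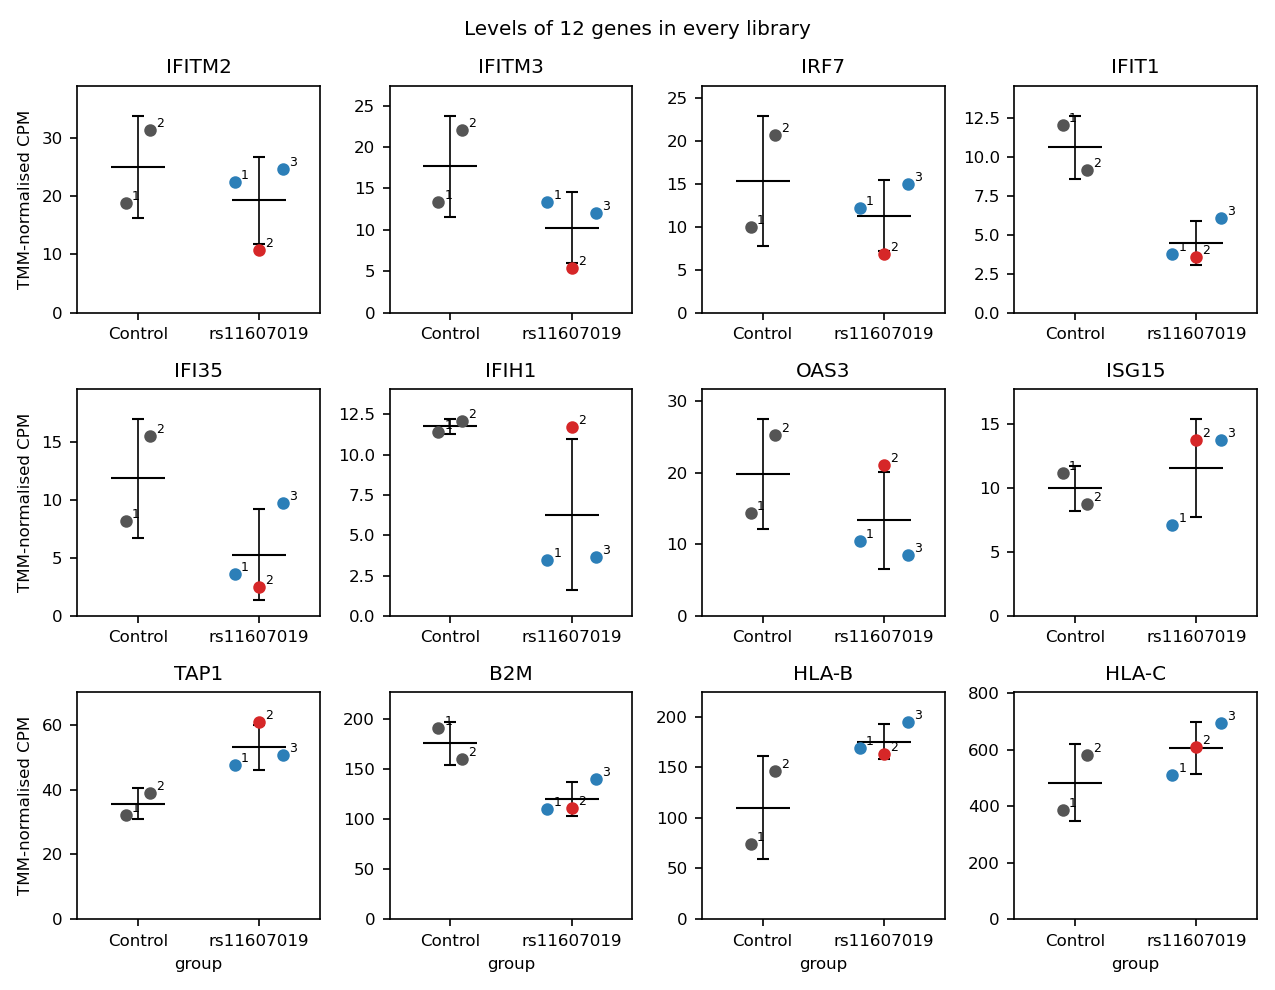
TMM-normalised CPM (y axis, from 0) of 12 genes in each library, by group (x axis). Points are libraries numbered by replicate (variant libraries under the label rs11607019), variant 2 is red, and horizontal marks with bars are means ± SD. For IFITM2, IFITM3 and IRF7 variant 2 is the lowest library, while for IFIH1, OAS3 and TAP1 it is the highest of the variant libraries.

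Of the other antiviral effectors, IFIT1 (ENSG00000185745, chromosome 10 from 89392546 to 89406486), which binds RNA that lacks the cap mark of host transcripts, was scarcer in each variant library than in either Control library. It stood at 12.1 and 9.18 CPM in Control and at 3.76, 3.56 and 6.10 CPM in the variant, from 207, 161, 65, 62 and 108 counts. The means were 10.6 ± 2.04 CPM (SD, n = 2) and 4.47 ± 1.41 CPM (SD, n = 3), with a log2 fold change of −1.25 (SE 0.31, edgeR unadjusted p 0.00255, adjusted p 0.616). The lowest adjusted p in any alternative was 0.0922 and the highest 0.998. IFIT5, its neighbour on chromosome 10, had 30.5 and 24.5 CPM in Control and 22.5, 26.3 and 21.6 CPM in the variant, and its groups overlapped.

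PLSCR1, an interferon-induced scramblase of membrane lipids, had 24.9 and 22.1 CPM in Control and 15.4, 18.5 and 18.4 CPM in the variant. Its groups also did not overlap, with a log2 fold change of −0.43 (SE 0.19, edgeR adjusted p 0.656), which became −0.21 once GC content and length were corrected for. ISG15, a ubiquitin-like modifier, was lowest in variant 1, at 7.11 CPM, and next lowest in Control 2, at 8.73 CPM. It had 11.2 CPM in Control 1 and 13.8 CPM in both other variant libraries. BST2 (tetherin), which holds budding virus on the cell, was near the lower limit of the table, at between 0.627 and 1.98 CPM, from between 11 and 34 counts. SAMHD1, which breaks down deoxynucleotides, had 65.7 CPM in variant 1 and between 38.002 and 46.8 CPM elsewhere. It lies on chromosome 20, where the median deviation of all tested genes in variant 1 was 0.46. The part of that chromosome in the SAMHD1 value was not tested. ISG20, an exonuclease, stayed between 5.07 and 7.47 CPM.

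The IFI and nuclear body genes held the gene with the lowest deviation in variant 2. IFI35, which encodes an interferon-induced leucine zipper protein, had 8.22 and 15.5 CPM in Control and 3.64, 2.47 and 9.77 CPM in the variant, from 141, 272, 63, 43 and 173 counts. Variant 1 and variant 2 were both below each Control library, and variant 3 was between them. The log2 fold change was −1.16 (SE 0.53, edgeR adjusted p 0.657), and −0.82 without variant 2. IFI35 lies on chromosome 17 from 43006725 to 43014456, and the 38 tested genes that start within 500 kb of it had a median deviation of 0.01 in variant 2. IFI6, an interferon-induced protein of mitochondria, was also lowest in variant 2, at 5.22 CPM, with 8.86 and 7.07 CPM in Control and 6.53 and 9.997 CPM in the other variant libraries.

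IFI27 and IFI27L1, neighbours on chromosome 14, were highest in variant 2. IFI27L1 had 15.7 and 14.2 CPM in Control and 13.6, 24.3 and 21.6 CPM in the variant, and IFI27 ran from 3.06 CPM in variant 1 to 6.14 CPM in variant 2. The 6 tested genes that start within 500 kb of each, the other of the pair among them, had a median deviation of 0.44 in variant 2 and 0.43 in variant 1, where IFI27L1 was low, and their part in these values was not tested. SP110, a nuclear body protein, had 8.92 and 13.5 CPM in Control and 7.86, 10.1 and 8.64 CPM in the variant, with groups that overlapped.

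The ubiquitin ligases and PARPs were all highest in Control 2, 4 of 4 genes beside the 15.4% of all tested genes. TRIM21, the antibody-binding ubiquitin ligase, had 8.63 and 16.3 CPM in Control and 7.98, 10.1 and 13.1 CPM in the variant. TRIM25, the ligase that modifies RIG-I, was more abundant, at 109.8 and 111 CPM in Control and 95.9, 104 and 83.7 CPM in the variant, and its groups did not overlap. PARP9 and DTX3L, whose proteins form a complex, start from a shared stretch in opposite directions and overlap, so without the counting's strand setting reads from that stretch cannot be told apart. PARP9 had 17.4 and 24.2 CPM in Control and 11.6, 15.2 and 17.2 CPM in the variant. DTX3L had 13.2 and 16.8 CPM in Control and 10.3, 11.5 and 14.4 CPM in the variant. Both were highest in Control 2 and lowest in variant 1. The PARP9 groups lay just apart, with a log2 fold change of −0.51 (SE 0.24, edgeR adjusted p 0.657).

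In MHC class I presentation 6 of 7 genes were higher in the variant by the sign of the log2 fold change, beside 50.5% of all tested genes, and 5 of 7 once GC content and length were corrected for (TAP2 at −0.13). These 6 genes lie on chromosome 6, where the tested genes around each of them had their highest median deviation in variant 3. TAPBP, HLA-B, HLA-C and HLA-E were highest in variant 3 too. TAP1 and TAP2 were highest in variant 2, and TAP2 was lowest in variant 3. The 28 tested genes that start within 500 kb of TAP1 had a median of −0.26 in Control 1, −0.06 in Control 2, −0.04 in variant 1, 0.04 in variant 2 and 0.31 in variant 3. For the 34 around HLA-B the medians were −0.17, −0.21, −0.03, 0.09 and 0.31, and the part of the neighbourhood in the class I values was not tested. TAP1, a chain of the peptide transporter, had 32.3 and 39.1 CPM in Control and 47.8, 61.02 and 50.8 CPM in the variant, with groups that did not overlap. Its means were 35.7 ± 4.79 CPM (SD, n = 2) and 53.2 ± 6.93 CPM (SD, n = 3), with a log2 fold change of 0.57 (SE 0.19, edgeR unadjusted p 0.0122, adjusted p 0.616). TAP2, its partner chain, had 17.1 and 18.9 CPM in Control and 17.5, 22.8 and 15.98 CPM in the variant, and did not show the separation of TAP1. TAPBP (tapasin), which joins the transporter to the heavy chain, had 55.1 and 60.3 CPM in Control and 54.1, 66.6 and 87.1 CPM in the variant, with variant 3 alone far above.

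The heavy chains were lowest in Control 1. HLA-B had 74.3 and 146 CPM in Control and 169, 163 and 195 CPM in the variant, so the Control libraries differed by more than Control 2 and the variant did. Its log2 fold change was 0.67 (SE 0.25, edgeR adjusted p 0.616), and 0.26 without Control 1. HLA-C, the gene with the highest level per length of the 39, at 222 CPM per kb of exon, had 387 and 579 CPM in Control and 509.7, 610.2 and 695 CPM in the variant. HLA-E, a ligand of natural killer cell receptors, had 93.5 and 121 CPM in Control and 108, 134 and 138 CPM in the variant. Without Control 1 the log2 fold changes of HLA-C and HLA-E were both 0.06.

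B2M, the light chain that every class I molecule needs, was the exception. It had 191 and 161 CPM in Control and 109.8, 111 and 140.2 CPM in the variant, all below both Control libraries. The log2 fold change was −0.55 (SE 0.17, edgeR unadjusted p 0.00873, adjusted p 0.616). It remained negative in each alternative run, between −0.67 and −0.33, and the adjusted p ran from 0.304 to 0.998. Thus B2M and the heavy chains stood on opposite sides of 0, though none passed the adjusted threshold.

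Whether the low IFITM2, IFITM3 and IRF7 of variant 2 belonged to a fall of the whole programme was read from each library's log2 CPM minus the mean of the other 4 libraries. In variant 2 this deviation was −1.15 for IFITM2, −1.45 for IFITM3 and −1.01 for IRF7, or 0.442, 0.352 and 0.473 times the mean level of the others. These genes were named for that reason, so their values are a description. Over the other 36 genes the median deviation of variant 2 was 0.08, with 24 genes above 0 and 12 below, where 50.4% of all tested genes were below. Variant 2 was the lowest library at 3 of the 36 genes (IFI35, IFIT1 and IFI6), where it was the lowest at 18.3% of all tested genes. It was 0.5 or more below the others at the same 3 genes, beside 5.34% of all tested genes. It was 0.5 or more above at 7 of the 36, beside 9.9%. No low level over the programme was therefore measured in variant 2, where IRF9 (0.88), IFIH1 (0.84), BST2 (0.72) and OAS3 (0.65) had the highest deviations.

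The low values in variant 2 followed position on chromosome 11 in part. The 7 tested genes from BET1L at 167784 to IFITM3 include SIRT3, and variant 2 was the lowest library at all 7, with a median deviation of −1.08. The range was from −1.45 for IFITM3 to −0.30 for PGGHG. IFITM2 and IFITM3 are among the 7 and were named for being low in variant 2. The 4 genes from BET1L to PSMD13, which hold neither and end before PGGHG, had a median of −1.04, between −1.12 and −0.86. PGGHG, at −0.30, lies between PSMD13 and IFITM2, so the low stretch was not unbroken. Variant 2 was the lowest library at all 4, beside 18.3% of all tested genes. The 11 genes between IFITM3 and IRF7 did not share this. Their median in variant 2 was 0.25, their lowest value −0.02, and variant 2 was the lowest library at 0 of the 11. IRF7, at 612553 to 615999, was low among genes that were not, since the 23 genes after it in the first 1.1 Mb had a median of 0.02, a lowest value of −0.39 and a highest of 1.95, at its neighbour CDHR5. TRIM21, further along the same arm at 4384897, had a deviation of −0.12. Over all tested genes, 0.674% were lower by 1 or more in variant 2.

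**Figure D3:**
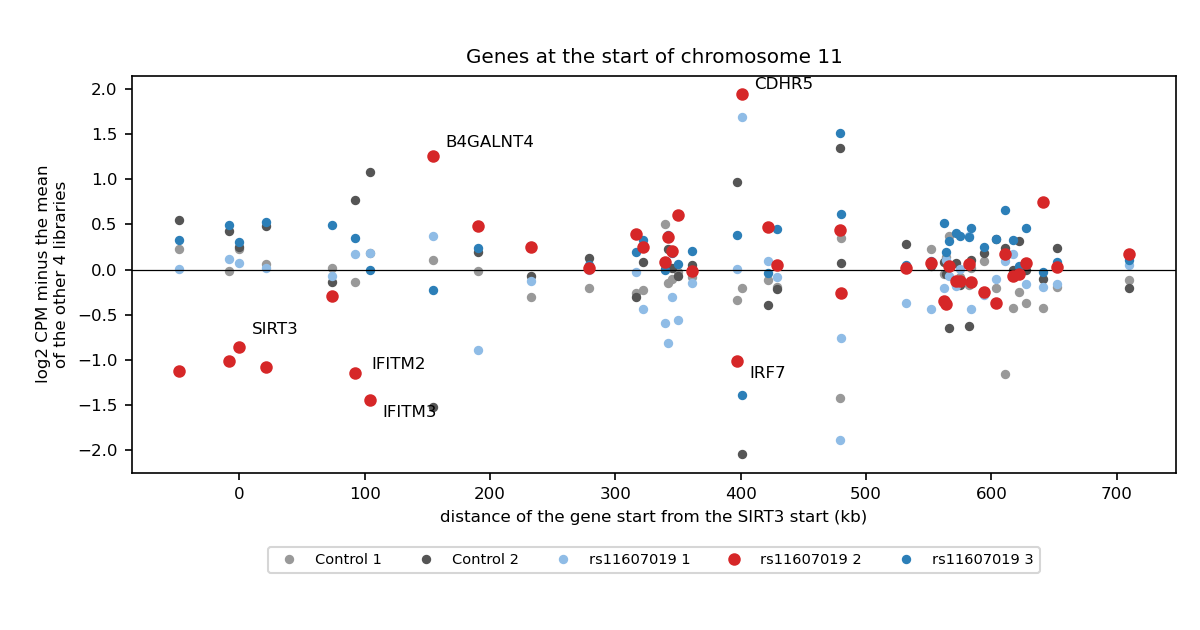
Deviation of each library's log2 CPM from the mean of the other 4 libraries (y axis) for the 42 tested genes in the first 1.1 Mb of chromosome 11, by distance of the gene start from that of SIRT3 in kb (x axis). Points are libraries, with variant 2 in red. The 7 genes up to IFITM3 are below 0 in variant 2, and IRF7 is low again beside genes that are not.

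Over the 39 genes, the deviations of Control 2 were mostly above 0 and those of variant 1 mostly below. Control 2 was the highest library at 16 of the 39 genes, beside 15.4% of all tested genes, and had a median deviation of 0.14. It was 0.5 or more above the others at 11 of the 39, beside 5.33%. Both numbers include IFITM2, IFITM3 and IRF7, which were named for their values in variant 2. Over the other 36 genes Control 2 was highest at 13 and 0.5 or more above at 8, with a median of 0.11. Variant 1 was the lowest library at 13 of the 39, beside 22.0%, with a median of −0.18. In it 29 of the 39 genes were below 0, beside 50.4% of all tested genes. It was 0.5 or more below the others at 10 of the 39, beside 10%. Variant 2 was 0.5 or more below at 6 of the 39, beside 5.34%, and above at 7, beside 9.9%. The 6 include IFITM2, IFITM3 and IRF7, which were named for being low there. Over the other 36 genes variant 2 was 0.5 or more below at 3 and above at 7. The medians of Control 1 and variant 3 were −0.05 and −0.002. After the correction for GC content and length the medians were 0.07, 0.19, −0.17, 0.01 and 0.01 in Control 1, Control 2, variant 1, variant 2 and variant 3.

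**Figure D4:**
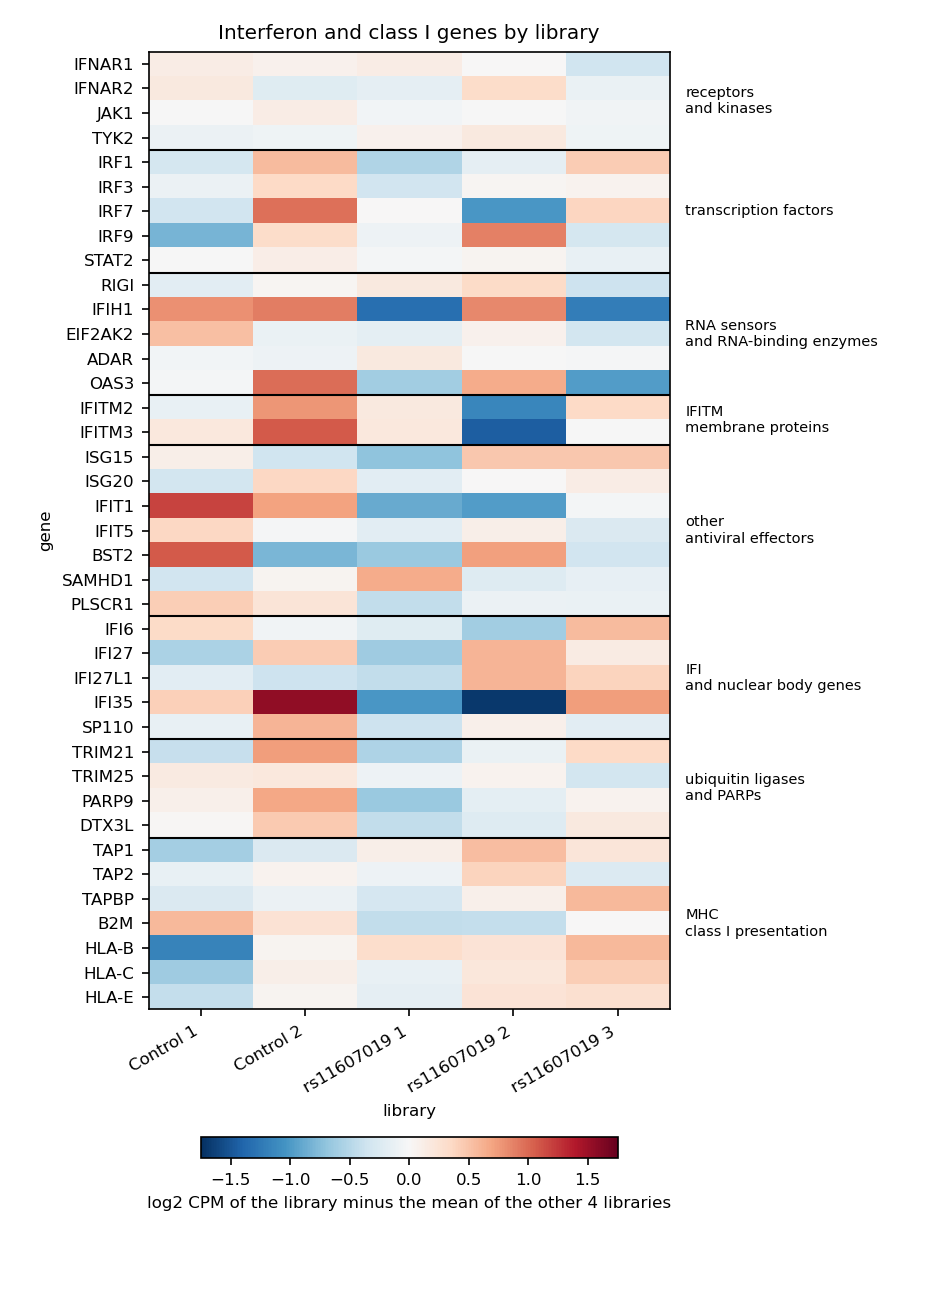
Deviation of each library (columns) from the mean of the other 4 in log2 CPM (colour, red above and blue below) for the 39 genes (rows), grouped by role. Blue runs through most rows of variant 1 and red through most rows of Control 2, while variant 2 is dark blue at IFITM2, IFITM3, IRF7, IFIT1 and IFI35 and pale or red in most other rows.

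The deviations were also read by the ISRE letters in the promoters, as a description with no test. In variant 1, 17 of the 19 genes with the letters were below 0, with a median of −0.43, and 9 of the 19 had their lowest level there. The 15 genes whose promoter window held no match had a median of −0.05 in variant 1. Of them 9 were below 0, beside 48.9% of all tested genes whose promoters held no match. Of all 391 tested genes with the letters, 56.8% were below 0 in variant 1, with a median of −0.05. In variant 2 the medians were 0.08 with the letters and 0.07 without them. There 8 of the 19 genes with the letters were below 0, beside 47.3% of all 391 tested genes with them. In Control 2 the medians were 0.26 with the letters and 0.11 without them. IFITM2 and IRF7 are named only, as no promoter was matched to them.

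Further genes of the pathway came from a list of 86, of which 63 were tested. At the adjusted threshold edgeR and DESeq2 called 0 of them. Without adjustment 3 were under 0.05 with edgeR (SAMD9, EPSTI1 and UBE2L6), all lower in the variant, beside 7.62% of all tested genes in either direction and 3.51% lower. The median log2 fold change was −0.01, with 32 lower and 31 higher. Among 22 further interferon-stimulated genes the median was −0.17, with 13 lower. In variant 2 the median deviation of the 63 genes was 0.03, and it was the lowest library at 11 of them, beside the 18.3% of all tested genes. Control 2 was the highest library at 20 of the 63, beside 15.4%, and variant 1 the lowest at 18, beside 22.0%.

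Of these further genes, MYD88, the adaptor of Toll-like receptors and the interleukin 1 receptor, stood out after its values were seen. It had 24 and 19 counts in Control and 22, 542 and 10 in the variant, and its level in variant 2, 31.1 CPM, was 28.8 times the mean of the rest. The group difference was not past the threshold, with a log2 fold change of 3.14 (SE 1.86, edgeR adjusted p 0.717), and it was −0.43 without variant 2. Its neighbours on chromosome 3, DLEC1, ACAA1 and OXSR1, had deviations of 0.40, 0.19 and −0.23 in variant 2. IRAK1 and IRAK4, the kinases that act after MYD88, were named once its value was seen. Their deviations in variant 2 were 0.53 and 0.51, where 9.9% of all tested genes were 0.5 or more above. Of the 11 tested genes of sensing and induction of interferon, MYD88 among them, 8 were above 0 in variant 2 and 3 below. Of all tested genes 50.4% were below 0 in that library. Any link of these values to MYD88 was not tested.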

How the data were processed

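The authors deposited raw read counts per Ensembl gene, whole numbers with no normalization, for 16677 genes in 5 libraries. Per the labels' protocols, libraries were strand-specific mRNA read as single ends of 50 bases. Per the submitters' processing notes, HISAT2, SAMtools, HTSeq and hg38 were used. Versions, annotation, strand setting, handling of shared reads and the filter on low genes are not given in the sources used here. Columns were matched to libraries by library name, with 0 left unmatched. GENCODE release 29 (GRCh38) gave positions, exon lengths and transcripts. edgeR 4.0.16 in R 4.3.3 was run with filterByExpr, TMM and the robust quasi-likelihood F test on group (16310 genes, two-sided, Benjamini-Hochberg over all of them, threshold 0.05). SE came from the F statistic. Log2 CPM used a prior count of 2. The test was checked on simulated counts. DESeq2 1.42.0, limma-voom (limma 3.58.1), RLE and upper-quartile scaling, no filter, at least 10 counts, a GC and length correction (splines, 5 degrees of freedom), a replicate block, another prior count (0.5) and leaving out each library were alternatives.

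Genes and lists were chosen with earlier results of these data known. Named genes were those in the first 5 Mb of chromosome 11, the 2 per role with the highest level per length, the 6 with the largest fold change among those with groups apart, and the 6 lowest and 4 highest in variant 2, with others named inside counts of their role. Some listed genes are not reported here.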

Additional observations from a re-analysis of the deposited data

How the results depend on the processing

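The count of interferon and class I genes past the adjusted threshold was 0 in the main test and in each alternative run, and so was that of the 63 further genes. Of 425 values under the alternatives 414 had the same sign and the same call, or moved by less than the spread or 1.5 times. Leaving out libraries moved the median log2 fold change of the 39 genes from −0.143 (without variant 3) to 0.0289 (without Control 2), and the cause was not tested. Over the 39 genes the sign turned for 2 after the GC and length correction, ADAR (−0.0803) and TAP2 (−0.13), and for 14 in at least 1 fit without 1 library. Of the 14, 7 are among the 27 genes named by rule, with ranges from −0.337 to 0.0289 for IRF3, from −0.874 to 0.181 for IRF7, from −0.0755 to 0.870 for IRF9, from −0.697 to 0.0303 for IFITM2, from −0.913 to 0.735 for BST2, from −0.438 to 0.0537 for IFI6 and from −0.645 to 0.269 for TRIM21. Fits with 1 Control library assume that it varies like the variant libraries. In variant 2 the median deviation of the 36 genes elsewhere lay between 0.0397 and 0.109 over all alternatives, and that of IFITM2, IFITM3 and IRF7 between −1.26 and −1.02. The alternatives for counts of lowest and highest libraries were chosen after seeing the data. Labels give no shared source for equal replicate numbers, and deviations from group means correlated at 0.12 for number 1 and −0.113 for number 2. With 2 Control libraries the deviations of 1 mirror those of the other, and Control 1 correlated at 0.113 with variant 2. These correlations therefore cannot decide if equal numbers are pairs. With the replicate block the median log2 fold change was −0.114 and 0 genes passed. Depth limits BST2 and IRF9 most, with as few as 11 and 34 counts.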
